A study of Mus musculus with 6 samples.

Results

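Klb encodes beta-klotho, the membrane co-receptor that lets FGF receptors bind the hormone FGF21, and it is described here with the 4 FGF receptor genes Fgfr1, Fgfr2, Fgfr3 and Fgfr4 and the 5 ligand genes Fgf1, Fgf2, Fgf7, Fgf10 and Fgf21. The 10 genes, of 18193 named on the array, were chosen by gene family with the difference between treated and untreated cells already known. They are represented by every probe set, a group of short probes for 1 transcript, that the platform annotation assigns to exactly 1 of them, which gave 23 of the 45101 probe sets on the array. The study measured transcripts in 3T3-L1, an established line of mouse preadipocytes widely used as a model of fat cells, on 6 one-colour arrays. The labels do not say how much resveratrol was given, for how long, or whether the cells had been differentiated. The groups were 3 samples treated with resveratrol, a plant polyphenol, and 3 untreated control samples, and no genotype or further agent is named for either. No label says whether the samples of a group came from separate dishes or experiments, so the spread between them may be technical.

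FGF receptors are membrane tyrosine kinases that form pairs when a ligand binds, and they signal through adaptors such as FRS2 to the ERK and AKT pathways. Most FGFs act close to where they are made and bind their receptor together with heparan sulfate, a sugar chain of the cell surface. FGF21 binds heparan sulfate weakly, circulates as a hormone, and needs beta-klotho beside the receptor, which in fat cells is chiefly FGFR1. FGF7 and FGF10 act on the splice form of FGFR2 found in epithelia, and FGF10 is also known for its part in the growth of fat tissue.

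Klb, Fgfr3 and Fgf10 were the genes with a probe set past the threshold of the comparison of treated with untreated cells, and the bases before their start sites are printed for that reason. Each run is the 250 bases before the RefSeq start site on the gene's strand, in build GRCm38.p6, with Klb at chr5:65348161-65348410 (+), Fgfr3 at chr5:33721474-33721723 (+, the upstream of its listed starts) and Fgf10 at chr13:118714449-118714698 (+). Capitals mark matches, on either strand, to 6 short motifs. AGGTCA is a nuclear receptor half-site. ACGTG, and in its variant form GCGTG, is the core of sites for hypoxia-inducible factors. The others are the CCAAT box, the TATA box as TATAAA, and the GC box as GGGCGG.
Klb: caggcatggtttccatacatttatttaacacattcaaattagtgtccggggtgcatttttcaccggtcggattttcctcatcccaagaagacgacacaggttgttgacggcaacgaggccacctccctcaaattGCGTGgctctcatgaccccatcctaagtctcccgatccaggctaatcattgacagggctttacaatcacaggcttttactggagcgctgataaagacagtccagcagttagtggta
Fgfr3: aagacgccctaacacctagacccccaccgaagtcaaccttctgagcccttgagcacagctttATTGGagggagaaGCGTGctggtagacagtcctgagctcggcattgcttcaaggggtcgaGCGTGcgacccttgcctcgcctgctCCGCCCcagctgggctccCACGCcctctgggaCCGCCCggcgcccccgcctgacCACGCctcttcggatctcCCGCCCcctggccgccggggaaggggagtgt
Fgf10: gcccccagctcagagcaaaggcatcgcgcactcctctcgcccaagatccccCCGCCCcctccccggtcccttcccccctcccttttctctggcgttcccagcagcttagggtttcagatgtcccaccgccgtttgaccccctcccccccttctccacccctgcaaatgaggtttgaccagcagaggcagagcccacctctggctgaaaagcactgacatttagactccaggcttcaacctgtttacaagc

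The Klb window held 1 match, GCGTG at -116 to -112 from the start site, a motif found in 28.2% of the 32851 windows of this length in the table. The Fgfr3 window held GCGTG 4 times, GGGCGG 3 times and CCAAT 1 time, and the Fgf10 window held GGGCGG 1 time. GGGCGG was found in 32.7% and CCAAT in 33.8% of all windows. Of the other motifs, AGGTCA was found in 14.0%, ACGTG in 16.6% and TATAAA in 12.4% of all windows and in none of these 3 runs. The share of G and C was 48.0% in the Klb window, 66.8% in that of Fgfr3 and 61.2% in that of Fgf10. These matches describe letters and say nothing of binding.

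The array values are intensities on a linear scale, with the same 2% trimmed mean on every array. Differences were taken on the log2 of intensity plus 16, as resveratrol minus control, and given with the standard error (SE) of a limma fit over all tested probe sets. On that scale a change of a dim probe set is understated. Tests were run on 27022 probe sets, the brightest 60% by mean log2 value over the 6 arrays. Of the 23 member probe sets, 17 were tested and 6 were too dim, and Fgf21 was the gene with none tested. Nearest to the limit, a tested probe set of Fgfr2 averaged 23.4 over the 6 arrays, and one left out, a probe set of Fgf1, averaged 14.8. As a measure of the floor, the 27 probe sets for bacterial transcripts that are not part of mouse RNA read between 0.1 and 19.0, with a median of 2.65.

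Of the 17 tested member probe sets, 3 passed an adjusted p of 0.05, 1 lower and 2 higher with resveratrol, where 8.17% of all tested probe sets passed, 4.22% lower and 3.95% higher. The members were chosen with this comparison known, so nothing is read from that count, and the members' values are given as a description with no test. For 6 of the 17 the groups did not overlap, against 26.4% of all tested probe sets. The median log2 difference of the 17 was 0.03, and that of all tested probe sets was 0.01. The plot of log2 differences by probe set shows 1 member far below the others.

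**Figure D1:**
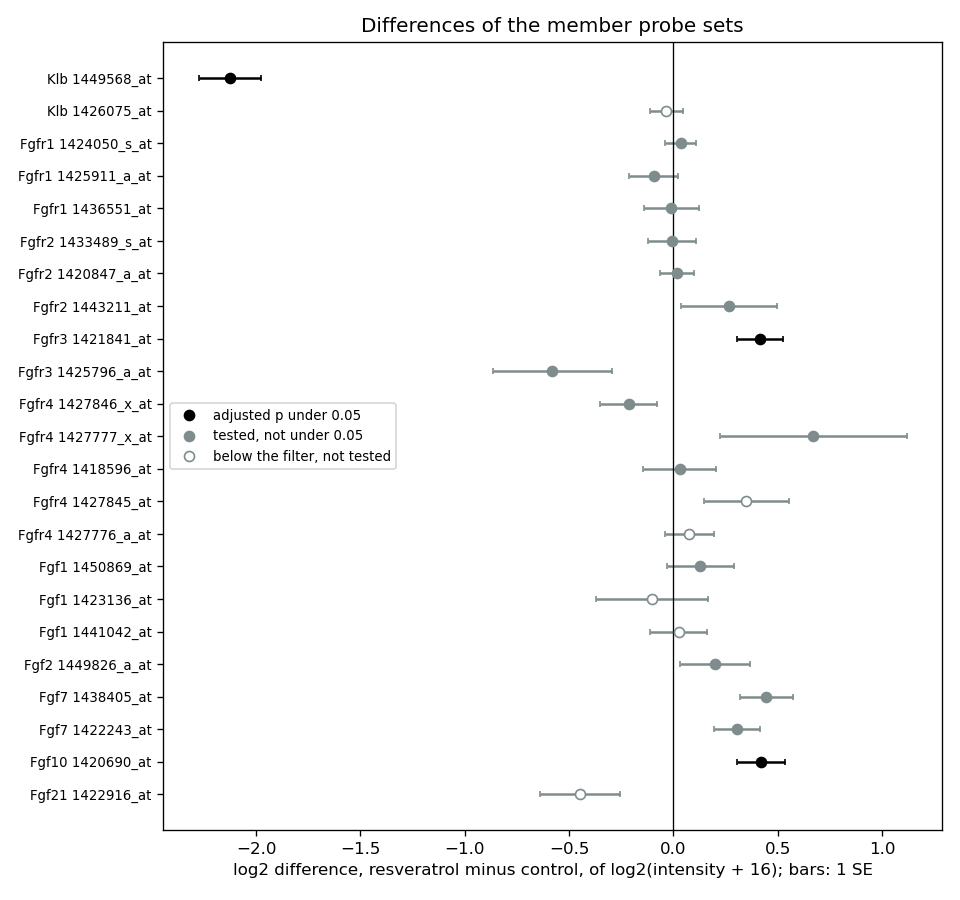
Log2 difference, resveratrol minus control, of log2(intensity + 16) for each of the 23 member probe sets (rows); bars are 1 SE of the limma fit (of the fit without a filter for the 6 open circles, which were not tested) and black points have an adjusted p under 0.05. The Klb probe set 1449568_at stands at -2.13, while the other tested members lie between -0.58 and 0.67.

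Klb, the co-receptor, was lower in every treated sample. Its probe set 1449568_at read 57.5, 100.9 and 73.9 in resveratrol replicates 1, 2 and 3, against 354, 413 and 388 in control replicates 1, 2 and 3. The highest treated sample lay well under the lowest control, and the groups did not overlap. The means were 77.4 ± 21.9 with resveratrol and 385 ± 29.5 in controls (SD, n = 3 each), so the treated mean was 0.201 of the control mean. The log2 difference was -2.13 ± 0.15 (SE), the ninth lowest of the 27022 tested probe sets, of which 132, or 0.488%, stood at -1 or lower. Among treated samples replicate 1 was the lowest and replicate 2 the highest, and among controls replicate 1 was the lowest.

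The other Klb probe set, 1426075_at, read 2.6, 1.3 and 2.2 with resveratrol, against 2.1, 2.2 and 3.1 in controls. All 6 values lie within the range of the bacterial probe sets, so this probe set gave no measure of Klb in either group, and the result rests on 1 probe set. The 6 arrays fall into 3 with brighter and 3 with dimmer signals of the spiked-in hybridisation controls, a split that no label names as a batch. Resveratrol replicate 1 and control replicates 1 and 2 were the brighter arrays. Within the brighter arrays the Klb difference was -2.44, and within the dimmer arrays it was -1.98. In these bulk samples, fewer cells of a type and less RNA per cell cannot be told apart.

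**Figure D2:**
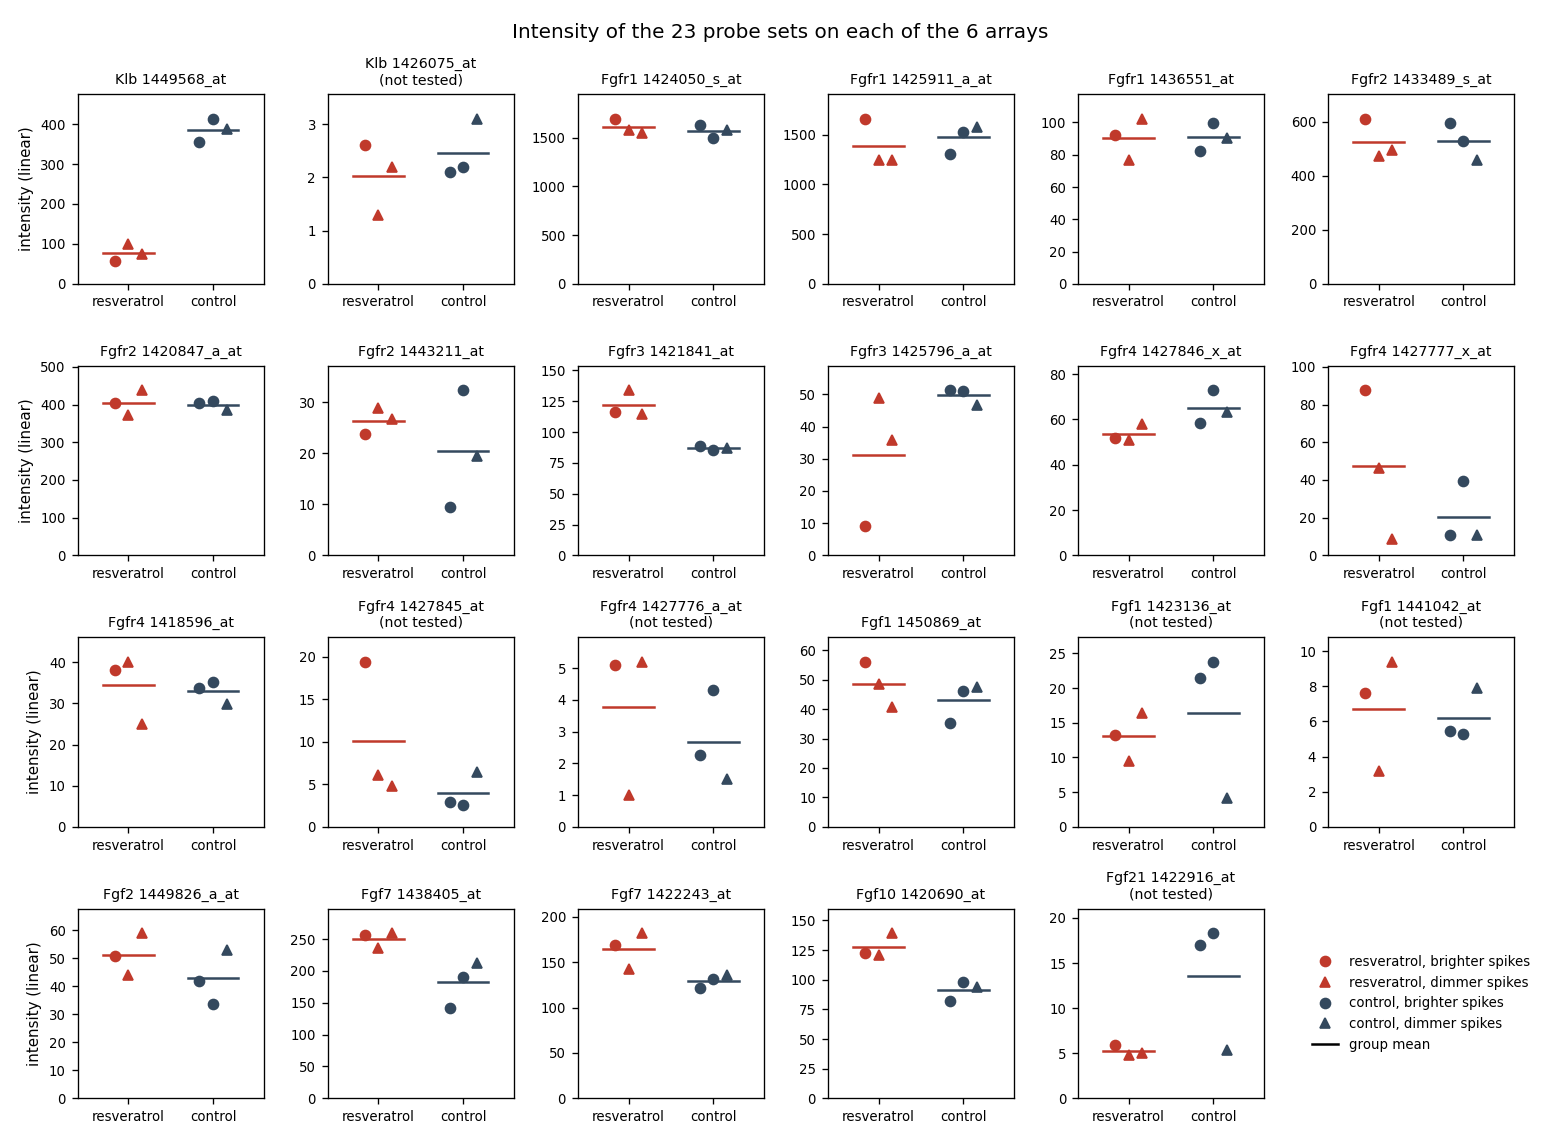
Intensity on a linear scale from 0 (vertical axis, separate for each panel) of the 23 member probe sets in the 3 resveratrol and 3 control samples; circles are arrays with brighter and triangles arrays with dimmer spiked-in controls, and lines are group means. Klb 1449568_at shows 57.5 to 100.9 with resveratrol and 354 to 413 in controls, while Fgfr1 1424050_s_at shows 1550 to 1694 with resveratrol and 1496 to 1633 in controls.

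Fgfr1, the receptor through which FGF21 acts on fat cells, showed overlapping groups at each of its 3 probe sets. Probe set 1424050_s_at read 1694, 1584 and 1550 with resveratrol, against 1633, 1496 and 1583 in controls. The difference was 0.03 ± 0.07 (SE), with a 95% interval of -0.13 to 0.20, and the Klb difference lies far below that interval. Probe set 1425911_a_at read 1662, 1252 and 1248 with resveratrol, against 1309, 1531 and 1583 in controls. Here the treated sample of the brighter arrays was the highest of all 6 and the other treated samples were the lowest, and the difference was -0.10 ± 0.12. It was 0.23 within the brighter and -0.34 within the dimmer arrays. Probe set 1436551_at had 90.3 ± 12.9 with resveratrol and 90.8 ± 8.68 in controls (SD, n = 3 each), a difference of -0.01 ± 0.13.

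Fgfr2, the receptor whose epithelial splice form binds FGF7 and FGF10, also had overlapping groups. Probe set 1433489_s_at read 610, 471 and 494 with resveratrol, against 596, 529 and 459 in controls, a log2 difference of -0.01 ± 0.11 (SE) with a 95% interval of -0.26 to 0.24. In each group the highest value came from replicate 1, an array with brighter spikes. Probe set 1420847_a_at read 405.5, 373 and 438 with resveratrol, against 405, 410 and 385 in controls, with a difference of 0.02 ± 0.08 and an interval of -0.16 to 0.20. Probe set 1443211_at had 23.7 to 28.8 with resveratrol and 9.38 to 32.3 in controls. The suffix _s_at on a probe set of Fgfr1 and of Fgfr2 means that its probes may match more than 1 transcript, and no probe set here is known to tell the splice forms apart.

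Fgfr3, a receptor best known for restraining bone growth, gave probe sets of opposite sign. Probe set 1421841_at read 115.9, 133.9 and 115.0 with resveratrol, against 88.6, 85.8 and 86.8 in controls. Every treated sample was above every control, and the controls lay close together. The means were 122 ± 10.7 with resveratrol and 87.1 ± 1.43 in controls (SD, n = 3 each), a log2 difference of 0.41 ± 0.11 (SE). Probe set 1425796_a_at read 9.2, 48.9 and 35.7 with resveratrol, against 51.3, 51.0 and 46.7 in controls. Its groups overlapped, resveratrol replicate 1 was far below the others, and the difference of -0.58 ± 0.29 came to -1.41 within the brighter arrays and -0.11 within the dimmer ones.

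Fgfr4, which acts with beta-klotho as the receptor of intestinal FGF in liver, was dim throughout. Probe set 1427846_x_at read 51.8, 50.9 and 58.0 with resveratrol, against 58.4, 72.9 and 63.3 in controls, and the groups lay just apart, with a difference of -0.21 ± 0.14 (SE). Probe set 1418596_at read 38.2, 40.1 and 24.9 with resveratrol, against 33.7, 35.2 and 29.8 in controls, with overlapping groups. On the log2 scale the largest SE of the members was at 1427777_x_at, at 0.45, with 87.6, 46.3 and 8.9 in treated samples and 10.7, 39.6 and 10.8 in controls. The x_at suffix of this and the first marks probes that may bind other transcripts. The other Fgfr4 probe sets, 1427845_at and 1427776_a_at, were not tested and averaged 7.03 and 3.22 over the 6 arrays.

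Among the ligands, Fgf10 and Fgf7, made by fibroblast-like cells for their neighbours, were higher in every treated sample than in any control. Fgf10 read 122.7, 121.1 and 139.2 with resveratrol, against 82.2, 98.1 and 93.9 in controls. Its means were 128 ± 10.02 with resveratrol and 91.4 ± 8.26 in controls (SD, n = 3 each), a ratio of 1.40 and a log2 difference of 0.42 ± 0.11 (SE). Within the brighter and the dimmer arrays the Fgf10 difference was 0.39 and 0.41. The calls of Fgf10 and of Fgfr3 1421841_at were close to the threshold. Both were lost when any 1 of the 6 arrays was left out, without the filter on dim probe sets, without an intensity trend, with the spike split as a block and with the replicate number as a block.

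Fgf7, the keratinocyte growth factor, had its groups apart at both of its probe sets and passed at neither. Probe set 1438405_at read 256, 236 and 259 with resveratrol, against 143, 190.3 and 213 in controls. The controls spread more widely than the treated samples, and control replicate 1 was the lowest. The difference was 0.44 ± 0.13 (SE), at 0.59 within the brighter and 0.20 within the dimmer arrays. Probe set 1422243_at read 169, 142 and 182 with resveratrol, against 122, 131 and 136 in controls, with a difference of 0.30 ± 0.11.

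Fgf2, a growth factor of fibroblasts, read 50.7, 44.0 and 58.9 with resveratrol, against 41.9, 33.7 and 53.0 in controls. The groups overlapped, and the difference was 0.20 ± 0.17 (SE). Fgf1, which binds all FGF receptors and has been linked to the remodelling of fat tissue in mice, had 1 tested probe set, 1450869_at, at 56.1, 48.6 and 40.8 with resveratrol and 35.3, 46.1 and 47.6 in controls. Its groups overlapped, with a difference of 0.13 ± 0.16. The other Fgf1 probe sets were not tested, at 9.5 to 16.4 and 3.2 to 9.4 with resveratrol and 4.1 to 23.8 and 5.3 to 7.9 in controls.

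Fgf21, the hormone that needs Klb to signal, was near the floor of the array. It read 5.9, 4.8 and 5.0 with resveratrol, against 17.0, 18.3 and 5.4 in controls. The groups overlapped, since the control at 5.4 lay under the highest treated sample. The bacterial probe sets reached 18.9 on the array of control replicate 2 and 19.0 on that of control replicate 3, above Fgf21 on each, but 11.4 on that of control replicate 1, where Fgf21 was above them. The controls at 17.0 and 18.3 were the arrays with brighter spikes. The difference was -0.62 within the brighter and -0.03 within the dimmer arrays, and on 5 of the 6 arrays Fgf21 lay within the range of the bacterial probe sets.

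The genes whose profile over the 6 arrays lay nearest to Klb were found by the root mean square difference of log2 values, each centred on its control mean. In order they were Car3 at 0.131, Pdk1 at 0.148, Apoc1 at 0.174, Ak4 at 0.201 and Pla2g2e at 0.213. Car3 encodes a carbonic anhydrase abundant in fat cells, Pdk1 a kinase that inhibits pyruvate dehydrogenase, Apoc1 an apolipoprotein, Ak4 a mitochondrial adenylate kinase and Pla2g2e a secreted phospholipase. Car3 read 541, 828 and 658 with resveratrol, against 3097, 2653 and 3101 in controls, and like Klb it was lowest in resveratrol replicate 1 and highest, among treated samples, in replicate 2. Pdk1 read 204.5, 285 and 223 with resveratrol, against 969, 1014 and 1304 in controls, in the same order of treated samples. Pla2g2e read 4.5, 5.5 and 4.6 with resveratrol, against 77.9, 82.4 and 60.7 in controls. Its treated values lie within the range of the bacterial probe sets, so its nearness to Klb depends on the offset of 16. The likeness to Klb is set mostly by the size of the difference between the groups and describes these 6 arrays.

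**Figure D3:**
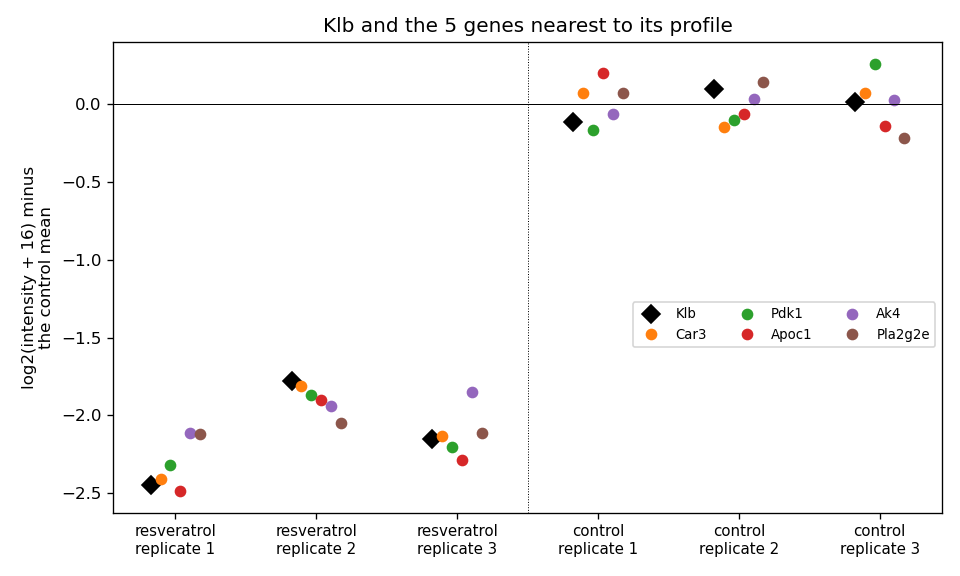
Log2(intensity + 16) minus the gene's control mean (vertical axis) on each array (horizontal axis) for Klb (black diamonds) and the 5 genes nearest to its profile. Klb lies between -2.45 and -1.78 in the treated samples, and Car3, Pdk1 and Apoc1 share its order of replicates, with replicate 1 lowest and replicate 2 highest.

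The rest of the FGF pathway was followed in 7 lists of genes, each gene by its brightest probe set, with adjusted p-values from the same limma fit. Of 78 tested genes other than members, 9 changed, 4 higher and 5 lower, or 11.5%, where 10.5% of all 12630 tested genes changed, 5.32% higher and 5.21% lower. Among 17 other FGF ligands 3 were bright enough to test, and 0 of them passed, with differences of -0.02 at Fgf14, 0.05 at Fgf9 and 0.15 at Fgf4. A further list held other klothos, a receptor-like protein, FGF-binding proteins and other membrane proteins, among them Flrt2, Cdh2 and Ncam1. Of its genes 8 were tested and 0 passed, with a median of 0.21 against 0.02 over all genes. Fgfrl1, a receptor-like protein without a kinase, read 3094, 2534 and 2686 with resveratrol, against 2466, 2437 and 2484 in controls. The groups lay apart, but the difference of 0.16 ± 0.09 (SE) did not pass (adjusted p = 0.314). Kl, which encodes alpha-klotho, the co-receptor of FGF23, read 1.4 to 12.6 with resveratrol and 0.759 to 1.3 in controls, within the range of the bacterial probe sets.

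Of 23 tested genes of heparan sulfate proteoglycans and their enzymes, 2 rose and 0 fell, with a list median of 0.07. Gpc6, a glypican that carries heparan sulfate on the cell surface, rose by 0.42 ± 0.12 (SE, adjusted p = 0.0487). It read 218, 181 and 233 with resveratrol, against 140.1, 149 and 172 in controls, and its 4 other tested probe sets had 0.16 to 0.40 and did not pass. Extl2, a glycosyltransferase that limits heparan sulfate chains, rose by 0.40 ± 0.10 (adjusted p = 0.0286), reading 233, 269 and 265 with resveratrol, against 172, 199 and 200.2 in controls. At 0.25, the remaining Extl2 probe set missed the threshold (adjusted p = 0.219). The Gpc6 call was lost in 10 of 15 alternatives and the Extl2 call in 7 of 15.

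Of 22 listed adaptors and kinases downstream of FGF receptors, 15 had a probe set naming them alone, and all 15 were tested. Among these, 1 fell and 0 rose, with a list median of -0.05. Map2k1, which encodes the kinase MEK1, fell by 0.27 ± 0.07 on the log2 scale (SE, adjusted p = 0.0334). It read 745, 777 and 794 with resveratrol, against 918, 942 and 947 in controls, and the call was lost when any 1 array was left out. The remaining 14, among them Grb2, Gab1, Ptpn11 and Braf, did not pass, with differences between -0.29 and 0.22.

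In the list of ERK feedback genes and FGF targets, 2 of 17 fell and 1 rose, with a median of 0.02. Fosl1, an AP-1 transcription factor that ERK signalling stabilises, read 129, 119.5 and 131 with resveratrol, against 332, 316 and 313 in controls, a log2 change of -1.24 ± 0.09 (SE, adjusted p = 1.5e-05). Its other probe set changed by -0.72 (adjusted p = 0.0286). Dusp4, a phosphatase that dephosphorylates ERK in the nucleus, read 401, 397 and 421 with resveratrol, against 637, 653 and 632 in controls, a change of -0.64 ± 0.07 (adjusted p = 0.000329). Ier2, an immediate-early gene, rose by 0.29 ± 0.07 (adjusted p = 0.0303), a call lost in 8 of 15 alternatives.

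Of the genes of this list named whatever their values, Spry1, Spry2, Spry4, Dusp6 and Etv5 did not pass at their brightest probe set, and Etv4 was not tested. Spry1 and Spry2, feedback inhibitors of receptor kinases, differed by 0.02 ± 0.08 (SE, adjusted p = 0.924) and 0.03 ± 0.10 (adjusted p = 0.9). Dusp6, the cytosolic ERK phosphatase, read 292, 363 and 333 with resveratrol, against 335, 312 and 320.1 in controls, with 0.02 ± 0.09 (adjusted p = 0.917). Etv5, an ETS factor induced by FGF in embryos, had 0.01 ± 0.13 (adjusted p = 0.975), and Etv4, its relative, was too dim to test at 18.9 to 26.0 with resveratrol and 4.5 to 12.7 in controls. Spry4 had 0.21 ± 0.09 at its brightest probe set without passing (adjusted p = 0.176). When its 4 probe sets were averaged first, it passed at 0.32 (adjusted p = 0.0242).

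Of 6 tested genes known to respond to FGF21 in fat cells, 1 fell and 0 rose, with a median of 0.02. Ppargc1a, a coactivator of mitochondrial biogenesis, read 228, 231 and 251 with resveratrol, against 388, 334 and 378 in controls, a change of -0.60 ± 0.09 (SE, adjusted p = 0.00208). Its 4 other probe sets had -0.50 to -0.39, and 2 of them passed. Slc2a1, the glucose transporter GLUT1 that FGF21 induces in 3T3-L1 cells, read 1270, 1236 and 1048 with resveratrol, against 1207, 1145 and 1276 in controls. At this probe set the groups overlapped, with a difference of -0.03 ± 0.09 (adjusted p = 0.882). Its other tested probe sets had -0.07 and -0.18 without passing (adjusted p = 0.695 and 0.183), and at -0.18 the groups lay apart. Ucp1, the uncoupling protein of brown fat, and Cidea were too dim to test.

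Among 8 tested transcription factors tied to Klb and Fgf21, 1 rose and 1 fell, with a median of -0.17. Rxra, the partner of PPAR receptors on DNA, read 778, 721 and 758 with resveratrol, against 601, 574 and 519 in controls, and rose by 0.41 ± 0.08 (SE, adjusted p = 0.00953). Its other probe set had 0.27 with overlapping groups and did not pass (adjusted p = 0.117). Cebpb, an early factor of fat cell formation, fell by 0.29 ± 0.07 on the log2 scale (adjusted p = 0.0371), a call lost in 8 of 15 alternatives. Pparg, the nuclear receptor that drives fat cell formation, read 2034, 2262 and 2054 with resveratrol, against 2524, 2482 and 2615 in controls. Its groups lay apart at -0.26 ± 0.08 and it did not pass (adjusted p = 0.061). Pparg passed in 3 of 15 alternatives. These were the brightest 40% (adjusted p = 0.0436), the spike split as a block (0.0331) and averaging the probe sets of each gene (0.04).

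**Figure D4:**
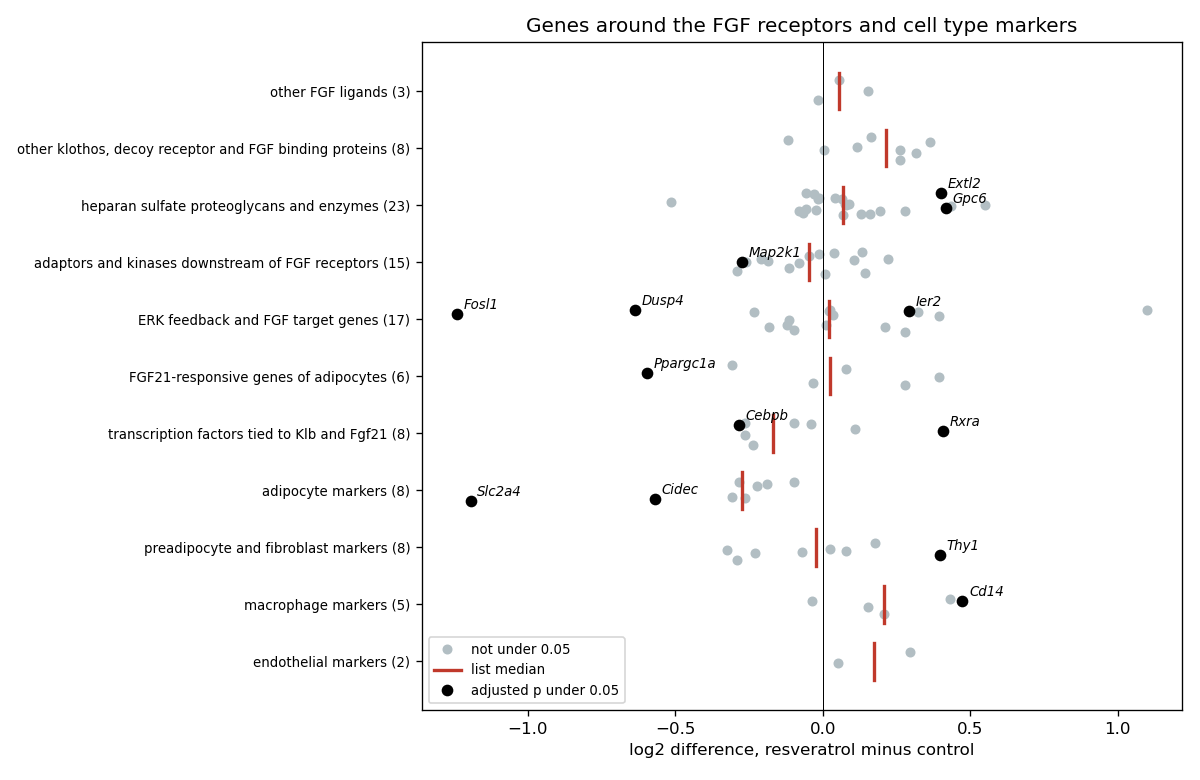
Log2 difference, resveratrol minus control (horizontal axis), of each tested gene in the 7 pathway and 4 cell type marker lists (rows, with the number tested); black points have an adjusted p under 0.05 in the limma fit, grey points do not, and red lines are list medians. Fosl1 at -1.24 and Slc2a4 at -1.19 are the lowest, and the grey point at 1.10 is Dusp5, which did not pass.

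Markers of fat cells were detected in both groups. Fabp4, a fatty acid carrier, read 8917 to 11741 with resveratrol and 8760 to 14421 in controls, with a difference of -0.22 ± 0.17 (SE, adjusted p = 0.517). Its probe sets disagreed, since 2 of the other 3 fell, by 0.51 and 0.67 on the log2 scale (adjusted p = 0.00164 and 0.00129). Adipoq, the adipokine adiponectin, differed by -0.31 ± 0.16 (adjusted p = 0.303). That value turned on single arrays, at -0.51 without control replicate 3, where it passed (adjusted p = 0.0172), and -0.15 without control replicate 2, and it also passed with quantile normalization, at -0.18 (adjusted p = 0.0295). Of 8 tested fat cell markers 2 fell, Slc2a4 by 1.19 and Cidec by 0.57 on the log2 scale, and 0 rose. Over all tested genes 5.21% fell and 5.32% rose. All 8 markers had differences below 0, from -1.19 to -0.10, with a median of -0.27 against 0.02 over all genes. For 4 of them the groups did not overlap at the brightest probe set. Over all tested probe sets, bright or dim, the share was 26.4%, and the share over genes was not computed. The summed level of the list, in which the brightest probe sets weigh most, overlapped between groups, at 33830 to 41030 with resveratrol and 35180 to 51580 in controls. Of 8 tested markers of preadipocytes and fibroblasts, the cells known to make Fgf7 and Fgf10, Thy1 rose by 0.40 (adjusted p = 0.0078) and 0 fell, with a median of -0.02. The collagens Col1a1 and Col3a1 had -0.32 and -0.29 and fibronectin, Fn1, -0.23 without passing, and the groups of Col1a1 and Fn1 did not overlap. The summed level of the 9 preadipocyte and fibroblast markers on the array was 26320 to 31490 with resveratrol and 28710 to 33730 in controls. Of 5 tested macrophage markers Cd14 rose by 0.47 (adjusted p = 0.0365, a call lost in 6 of 15 alternatives), and the summed level of the 8 on the array was 388 to 440 with resveratrol and 287 to 359 in controls, with no overlap. Ptprc, which defines leukocytes, averaged 6.4 with resveratrol and 10.6 in controls, within the range of the bacterial probe sets. Of 6 endothelial markers 2 were tested and 0 passed, with sums of 105 to 138 with resveratrol and 85.4 to 123 in controls, and Pecam1 averaged 5.3 and 5.5. The samples came from a line of preadipocytes, so the macrophage and endothelial sums are levels of transcripts and not a measure of such cells. The part of fat cells and of preadipocytes in the values of Klb, Fgf7 and Fgf10 was not tested.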

How the data were processed

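RNA from 3 resveratrol-treated and 3 untreated samples of 3T3-L1 cells was hybridised to one-colour arrays. The authors deposited 1 linear intensity for each probe set and array. Every array has a 2% trimmed mean of 150.0, which points to a global scaling. No source used here names the software behind it. Of 45101 probe sets, 34945 name 1 gene. They were named from the platform annotation, with symbols compared through the Entrez number with RefSeq of GRCm38.p6, where 34754 matched and 0 differed. The number of arrays limits the precision.

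The 64 control probe sets were left out. Values were turned into log2(intensity + 16), and the 60% with the highest mean log2 value were tested with limma 3.58.1 in R 4.3.3 (lmFit and trended eBayes). Tests were 2-sided, p-values were adjusted by Benjamini and Hochberg's method over 27022 probe sets, and the threshold was 0.05. Differences of untested members come from the same fit without a filter. The fit was tested on simulated arrays. Promoter windows come from RefSeq, where 8 of the 10 genes were used. No window of Fgfr1 or Fgf1 was examined, so statements on the member windows do not cover them. Python 3.11.15 drew the figures.

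Members, lists, tests and alternatives were chosen with earlier results of these data known. Named are all members, up to 4 genes of each list past the threshold with the smallest p, 13 fixed genes, and the 5 nearest to Klb; Lctl, among the fixed genes, was not analysed here. Other genes are named as examples or extremes of a list, after their values were seen. The settings varied were the offset (1 or 64), quantile scaling, the filter (none, or the brightest 40%), the intensity trend, the replicate number as a block, the spike split as a block, leaving out each array, and, for lists, averaging the probe sets of each gene. Deviations from the group means of same-numbered arrays correlated at -0.061, -0.016 and 0.093, and those of differently numbered arrays between -0.082 and 0.094. With so few arrays this cannot show whether the samples were paired, and no label says that they were.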

Additional observations from a re-analysis of the deposited data

How the results depend on the processing

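The Klb difference was below 0 and past the threshold in all 14 alternatives. It ranged from -2.33 (offset of 1) to -1.68 (offset of 64). With 1 array left out it ranged from -2.30 to -1.97. The members were chosen with this comparison known and the alternatives reuse the same arrays, so member calls describe the processing and test no member. The count of 3 member probe sets past the threshold was 1 without a filter, without an intensity trend, with the replicate number as a block and with the spike split as a block, and 1 to 2 with 1 array left out. In those alternatives Klb remained, and without control replicate 3 Fgf7 1438405_at passed beside it, as it did with the brightest 40%. Member probe sets kept their direction in 220 of 232 alternatives, and the exceptions were probe sets of Fgfr1, Fgfr2 and Fgfr4 with differences near 0. The count of 9 pathway genes was 5 without a filter, 16 with the brightest 40%, 3 without an intensity trend, 15 when the probe sets of each gene were averaged, and 4 to 11 with 1 array left out, the lowest without control replicate 2. Over all probe sets, the 2209 calls were 1396 without a filter, 861 without an intensity trend and 1894 with the replicate number as a block, and 1131 to 1952 with 1 array left out, with 1232 without resveratrol replicate 1, 1131 without resveratrol replicate 2 and 1179 without control replicate 2. No label says that the numbers pair the cultures, so a call lost under that block is not read as a weaker effect. Of 23 tested genes named from the lists, 10 kept their call, passing or not, in all 15 alternatives. Fosl1, Dusp4, Ppargc1a and Slc2a4 passed in all of them, and Dusp6, Etv5, Fgfrl1, Slc2a1, Spry1 and Spry2 passed in none. The other named list genes past the threshold lost their call in at least 1 alternative. Fewer samples or more probe sets under the adjustment are part of how these alternatives are made; further causes were not tested. Signals within the range of the bacterial probe sets, up to 19.0, limit Fgf21 and the other Klb probe set.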

Other observations

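Start-site windows were compared across the members. Of the 9 windows of 250 bases, from 8 member genes, GCGTG was found in 6, those of Klb, Fgfr4, Fgf2, Fgf7, Fgf21 and the upstream start of Fgfr3, and GGGCGG in 6, those of Fgfr4, Fgf2, Fgf10, Fgf21 and both starts of Fgfr3. The Klb window was the only one of those with GCGTG to hold none of the other motifs searched. The Fgf21 window was the only one with TATAAA, at -28 to -23 from the start, and it also held ACGTG on both strands at overlapping positions, from -50 to -45. The Fgf7 window was the only one with AGGTCA, at -47 to -42. The Fgfr2 window held no match to any of the motifs. These matches describe letters in 9 windows and were not tested against the expression values.

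Among the immediate-early genes of the lists, Egr1 and Fos had higher means with resveratrol without passing. Egr1 read 2916, 2988 and 3524 with resveratrol, against 2377, 2652 and 2714 in controls, a log2 difference of 0.28 ± 0.10 (SE, limma adjusted p = 0.103). Fos read 665, 682 and 518 with resveratrol, against 434, 430.2 and 543 in controls, with 0.39 ± 0.12 (adjusted p = 0.0694), and resveratrol replicate 3 lay below control replicate 3.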
